A study of Mus musculus with 2 samples.

Results

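The cells described here are dividing epithelial cells of mouse back skin, 2046 of the 59588 cells with at least 20 counted transcripts in the series. They were chosen by their transcripts in a spatial measurement of 379 genes. A cell was taken as epithelial where Trim29, Dsc3, Serpinb5 and S100a14 made up at least 8% of its transcripts. It was taken as outside the cornifying layer where Lor and Asprv1 made up less than 8%, and the 25090 cells that met these limits are called eligible. An eligible cell was called dividing where Cenpf and Ube2c together gave at least 3 transcripts, and non-dividing where they gave 0. Dividing cells were split by Lhx2 and Tbx1, both transcription factor genes of the hair follicle, into 1094 follicular cells with at least 2 transcripts of the pair and 952 other cells. These 10 genes chose the members, so their levels are given as a description only. The shares and numbers of dividing cells follow from the same 10 genes and are likewise a description. The other results rest on the remaining 369 genes and on position, which the choice did not use.

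The skin came from C57BL/6 mice whose shaved and depilated backs received PBS (mock) or SspA with HDM on the surface, and both were sampled at day 7. Each treatment had 1 sample, measured in 5-µm sections of fixed, embedded tissue, so no difference has a replicate check and no test was made. Intervals are at 95% and cover counting error only. The labels name no genotype beyond the strain and give no number of animals. The mock section held 221 of the members (9 follicular, 212 other) and the SspA+HDM section held 1825 (1085 follicular, 740 other). The sections gave 2461475 and 8124205 gene transcripts, and their tables shared 0 cell names. Each section lay in 2 strips of skin, which are parts of a sample and not replicates. The depth of the epithelium followed the same course along both SspA+HDM strips, with a Pearson correlation of 0.846 over 76 bins of 100 µm. In mock it was 0.129, and 0.650 after a shift of 1 bin, over 67 bins. Bins of a strip are not independent, no label tells whether the strips are neighbouring cuts, and a follicle may therefore have been counted in both.

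Skin epithelium renews itself by division in the basal layer of the epidermis and, in a growing hair follicle, in the matrix at its base, while cells that leave these places differentiate. Depilation is known to start a new growth phase in resting follicles. Cenpf encodes a protein of the kinetochore and Ube2c an enzyme that works with the anaphase-promoting complex to mark mitotic proteins for destruction. Both transcripts accumulate late in the cell cycle. Stmn1 encodes stathmin, which destabilises microtubules and is abundant in proliferating cells. Of 13 division genes on a list that also held Mki67, Top2a and Pcna, only these 3 were on the panel.

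The promoters of Cenpf and Ube2c are shown because transcripts of these genes chose the cells. Genes of late cell-cycle phases often carry a TTTGAA element, known as the cell cycle genes homology region, and CCAAT boxes. Capitals mark TTTGAA and CCAAT on either strand. Each sequence runs 5′ to 3′ on the gene's strand, from 250 bases before the annotated start to 10 bases after it, and comes from RefSeq on build GRCm38.p6. The first is chr1:189688077-189688336 on the minus strand and the second chr2:164769679-164769938 on the plus strand.
Cenpf: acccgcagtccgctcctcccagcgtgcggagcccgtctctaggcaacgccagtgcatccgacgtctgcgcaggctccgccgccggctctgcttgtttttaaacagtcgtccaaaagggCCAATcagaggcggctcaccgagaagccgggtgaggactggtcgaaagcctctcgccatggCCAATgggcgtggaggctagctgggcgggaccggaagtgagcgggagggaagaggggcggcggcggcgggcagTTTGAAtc
Ube2c: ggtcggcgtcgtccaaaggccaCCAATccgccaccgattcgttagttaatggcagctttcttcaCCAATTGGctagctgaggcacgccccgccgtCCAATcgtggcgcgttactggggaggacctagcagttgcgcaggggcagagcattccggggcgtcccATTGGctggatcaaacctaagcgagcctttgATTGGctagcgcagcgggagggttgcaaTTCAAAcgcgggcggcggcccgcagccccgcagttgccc
Cenpf had 1 TTTGAA, which began 3 bases into the transcript, and 2 CCAAT, at 132 and 71 bases before the start. Ube2c had 1 TTTGAA on the reverse strand, 29 bases before the start, and 6 CCAAT, 3 on each strand. Its CCAAT at 186 bases before the start overlapped the reverse match at 183 bases, so that the letters read CCAATTGG. Over 32851 RefSeq promoters cut to the same length, 16.3% held TTTGAA, 34.6% held CCAAT and 5.81% held both. TTTGAA with at least 2 CCAAT was found in 1.61%. A match describes letters in this window and shows no binding.

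The label was checked against Stmn1, which took no part in the choice. In follicular cells of the SspA+HDM section Stmn1 gave 13.8 transcripts per dividing cell and 3.49 per non-dividing cell. In other cells of that section it gave 8.27 and 1.43. In other cells of the mock section it gave 7.91 and 0.911. The 9 dividing follicular mock cells had 6.89 per cell, against 0.323 in the non-dividing ones. At least 1 Stmn1 transcript was counted in 99.9% of the dividing follicular and 99.2% of the dividing other cells of SspA+HDM, and in 98.6% of the dividing other cells of mock. Among non-dividing cells these shares were 72.2%, 54.0% and 46.5% in the same order. Detection of Stmn1 alone therefore does not separate dividing from non-dividing cells, and the check rests on its level within a class.

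Stmn1 also graded with the count of Cenpf and Ube2c on both sides of the limit of 3. In follicular cells of SspA+HDM it went from 3.49 per cell at a count of 0 to 7.44 at 1 and 9.32 at 2, just outside the limit. Just inside, it was 11.6 at 3, and it reached 16.4 at 6 or more. Other cells of the same section ran from 1.43 at 0 through 3.68 and 5.53 at 1 and 2 to 6.67 at 3 and 11.2 at 6 or more. Other mock cells ran from 0.911 through 2.43 and 4.39 to 5.89 at 3 and 9.44 at 6 or more, with 6.83 at 5 below the 9.0 at 4. No step separated cells at 2 from cells at 3, so the limit cuts a range of levels. There were 399 follicular and 540 other SspA+HDM cells at a count of 2, and 300 and 270 at 3. Cells of higher count also held more transcripts, with a median of 103 transcripts at 0 and 151 at 6 or more in the follicular cells. As CPM, which corrects for depth, Stmn1 still went from 40773 at 0 to 114369 at 2, 136491 at 3 and 153592 at 6 or more. Here CPM is transcripts of a gene per 1000000 transcripts of the 369 genes outside the rule. Non-dividing follicular cells of SspA+HDM, at 40773 CPM, came near the dividing other cells of that section, at 48385 CPM. A level of Stmn1 thus does not tell dividing from non-dividing cells across the classes.

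**Figure D1:**
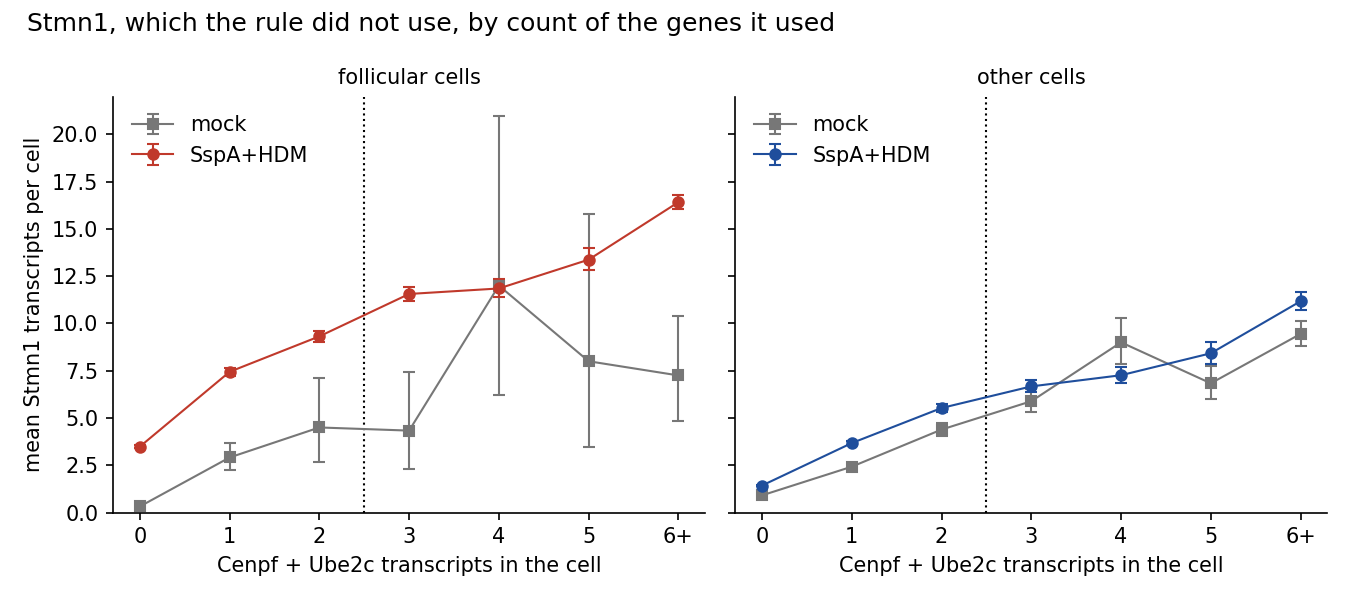
Mean Stmn1 transcripts per cell (y axis) against the number of Cenpf and Ube2c transcripts in the cell (x axis), for follicular cells (left) and other cells (right) of mock (grey squares) and SspA+HDM (coloured circles), with exact Poisson 95% intervals as bars. The dotted line is the limit of the rule. In SspA+HDM the level climbs from 3.49 to 16.4 in follicular and from 1.43 to 11.2 in other cells without a step at the line; the mock follicular points right of the line rest on 9 cells.

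Transcripts of Cenpf and Ube2c in muscle cells give a background of the choice. In cells where the muscle genes Ttn, Actn3 and Pvalb made up at least 10% of transcripts, 2 of 2331 in mock (0.0858%) and 6 of 4027 in SspA+HDM (0.149%) reached a count of 3. Over all cells outside the epithelial limit, 0.160% in mock and 1.76% in SspA+HDM reached it. In SspA+HDM the share was 14.8% of those with at least 2 transcripts of Lhx2 and Tbx1 (92 of 621) and 1.42% of the rest. Whether these cells were dividing was not tested, so the share over all of them is not taken as background. The muscle-rich cells held medians of 267 and 274 transcripts, more than the eligible cells with 116 and 152. Both genes were detected in 87.3% of the dividing other cells of mock, in 84.7% of those of SspA+HDM and in 82.4% of the dividing follicular cells of SspA+HDM. Transcripts of Ube2c per transcript of Cenpf were 0.644, 0.884 and 0.597 in the same order. Of the Cenpf transcripts, 60.6%, 55.7% and 57.1% lay over a nucleus, against 38.6%, 45.7% and 55.7% of the transcripts of all 379 genes in those cells.

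In the follicular class, dividing cells were 0.910% of eligible cells in mock (9 of 989, exact interval 0.417 to 1.72%) and 25.4% in SspA+HDM (1085 of 4275, 24.1 to 26.7%). The strips gave 1.07 and 0.766% in mock and 24.9 and 25.8% in SspA+HDM, and the ranges of the sections did not overlap. The ratio of the shares was 27.9 (14.5 to 53.6). In the other class the share was 4.49% in mock (212 of 4720, 3.92 to 5.12%) and 4.90% in SspA+HDM (740 of 15106, 4.56 to 5.26%). Its strips gave 4.15 and 4.78% against 4.88 and 4.92%, and the ratio was 1.09 (0.940 to 1.27, counting error only). Follicular cells were 4.07% of dividing cells in mock and 59.5% in SspA+HDM, although they were 17.3% and 22.1% of eligible cells.

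Counted per mm of strip, dividing follicular cells went from 0.646 to 70.7. Dividing other cells went from 15.2 to 48.2 per mm, which is 3.17 times as many, beside eligible other cells that went from 339 to 984 per mm. A cell with more transcripts reaches a count of 3 more easily, so cells were also thinned to 60 transcripts each. The limits of the rule were applied anew after thinning, so a class did not hold the same cells before and after. The share of follicular cells was then 0.163% in mock (1 of 613) and 13.5% in SspA+HDM. Before thinning it was 1.13% and 27.4% of the eligible follicular cells with at least 60 transcripts. For other cells it was 1.54% and 1.30% thinned, against 5.28% and 5.20% before thinning at that depth. The order of the sections had thus turned already when 725 mock and 1195 SspA+HDM cells with too few transcripts were left out. It also turned where transcripts over the nucleus alone were counted (ratio 0.937) or a count of 5 was asked (0.739).

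**Figure D2:**
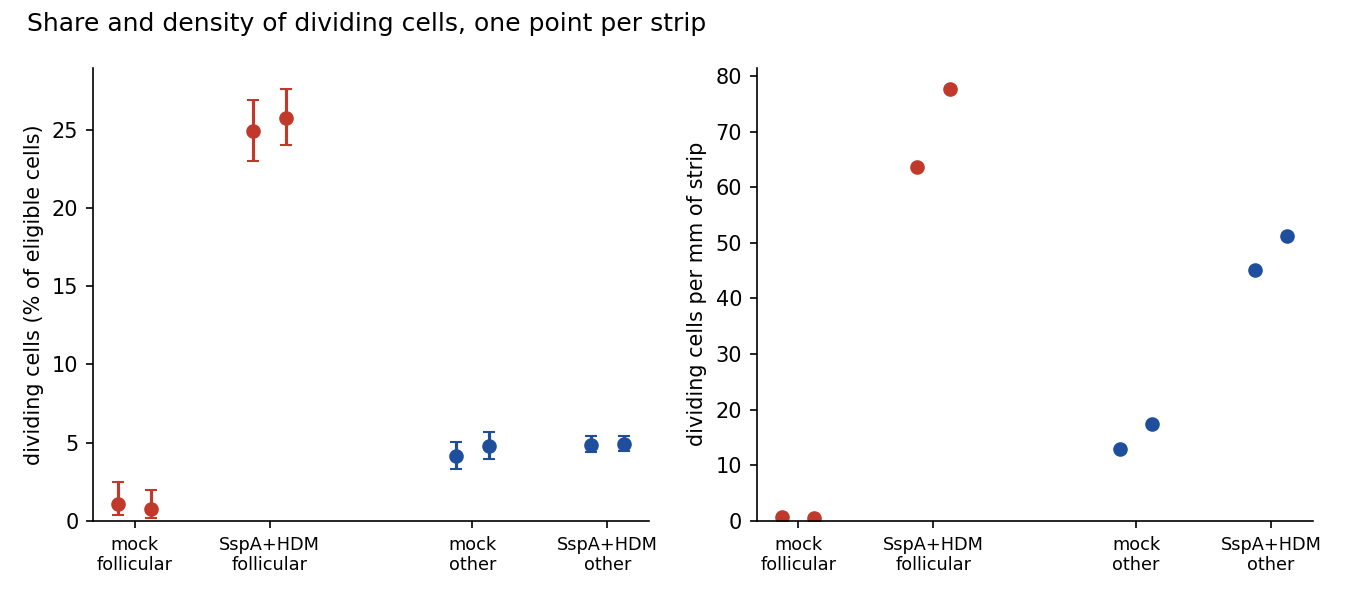
Dividing cells as a percent of eligible cells with exact binomial 95% intervals (left) and as cells per mm of strip (right), 1 point per strip of each section, for follicular cells (red) and other cells (blue). The follicular share lies at 24.9 and 25.8% in the SspA+HDM strips and at 1.07 and 0.766% in mock, while the other cells lie between 4.15 and 4.92% in all 4 strips.

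Among dividing SspA+HDM cells the count of Lhx2 and Tbx1 was mostly at one end or the other. It was 0 in 661 cells, 1 in 79, 2 in 55, 3 in 55, and 4 or more in 975. Median depth below the outer surface was 45.8 µm at 0, 113 µm at 1, 189 µm at 2 and 202 µm at 4 or more. Cells just outside the follicular limit thus lay between the classes in depth.

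The classes lay at different depths. Dividing follicular cells of SspA+HDM had a median depth of 201 µm (quartiles 165 and 240 µm), the same in both strips, and non-dividing follicular cells 186 µm. The dividing share of follicular cells was 27.5% at 60 to 100 µm (11 of 40, 14.6 to 43.9%), 18.2% at 100 to 150 µm, 25.6% at 150 to 200 µm, 28.5% at 200 to 250 µm and 28.2% deeper. The 9 in mock had a median depth of 70.8 µm, against 89.5 µm for non-dividing follicular cells there. Dividing other cells had a median depth of 21.7 µm in mock (strips 21.4 and 22.0 µm) and 49.8 µm in SspA+HDM (strips 49.4 and 49.9 µm). In mock 82.5% of them lay within 60 µm of the surface, and in SspA+HDM 57.4%. In SspA+HDM 171 of 740 (23.1%) lay deeper than 100 µm, so the other class is not epidermis alone.

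Within the other class the dividing share peaked at different depths in the sections. In mock it was 6.04% above 30 µm, then 2.82% at 30 to 60 µm and 2.62% at 60 to 100 µm. Eligible mock cells held medians of 163, 86 and 104 transcripts in the same order. In SspA+HDM the share was 3.91% above 30 µm, 7.29% at 30 to 60 µm and 5.25% at 60 to 100 µm, with medians of 268, 176 and 144 transcripts. Measured from the nearest cell outside the epithelium, the SspA+HDM share was 6.95% at 10 to 15 µm and fell to 1.73% beyond 30 µm. Eligible cells beyond 30 µm held more transcripts, with a median of 246.5 against 167 at 10 to 15 µm. Of dividing other cells in SspA+HDM 14.1% lay over 20 µm from such a cell, against 27.8% of non-dividing ones. In mock these shares were 19.3% and 22.0%, and the peak was 6.41% at 15 to 20 µm, against 2.61% at 0 to 10 µm. Eligible mock cells held medians of 150 and 80 transcripts at these distances. The part of transcripts per cell in the mock peaks was not tested.

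**Figure D3:**
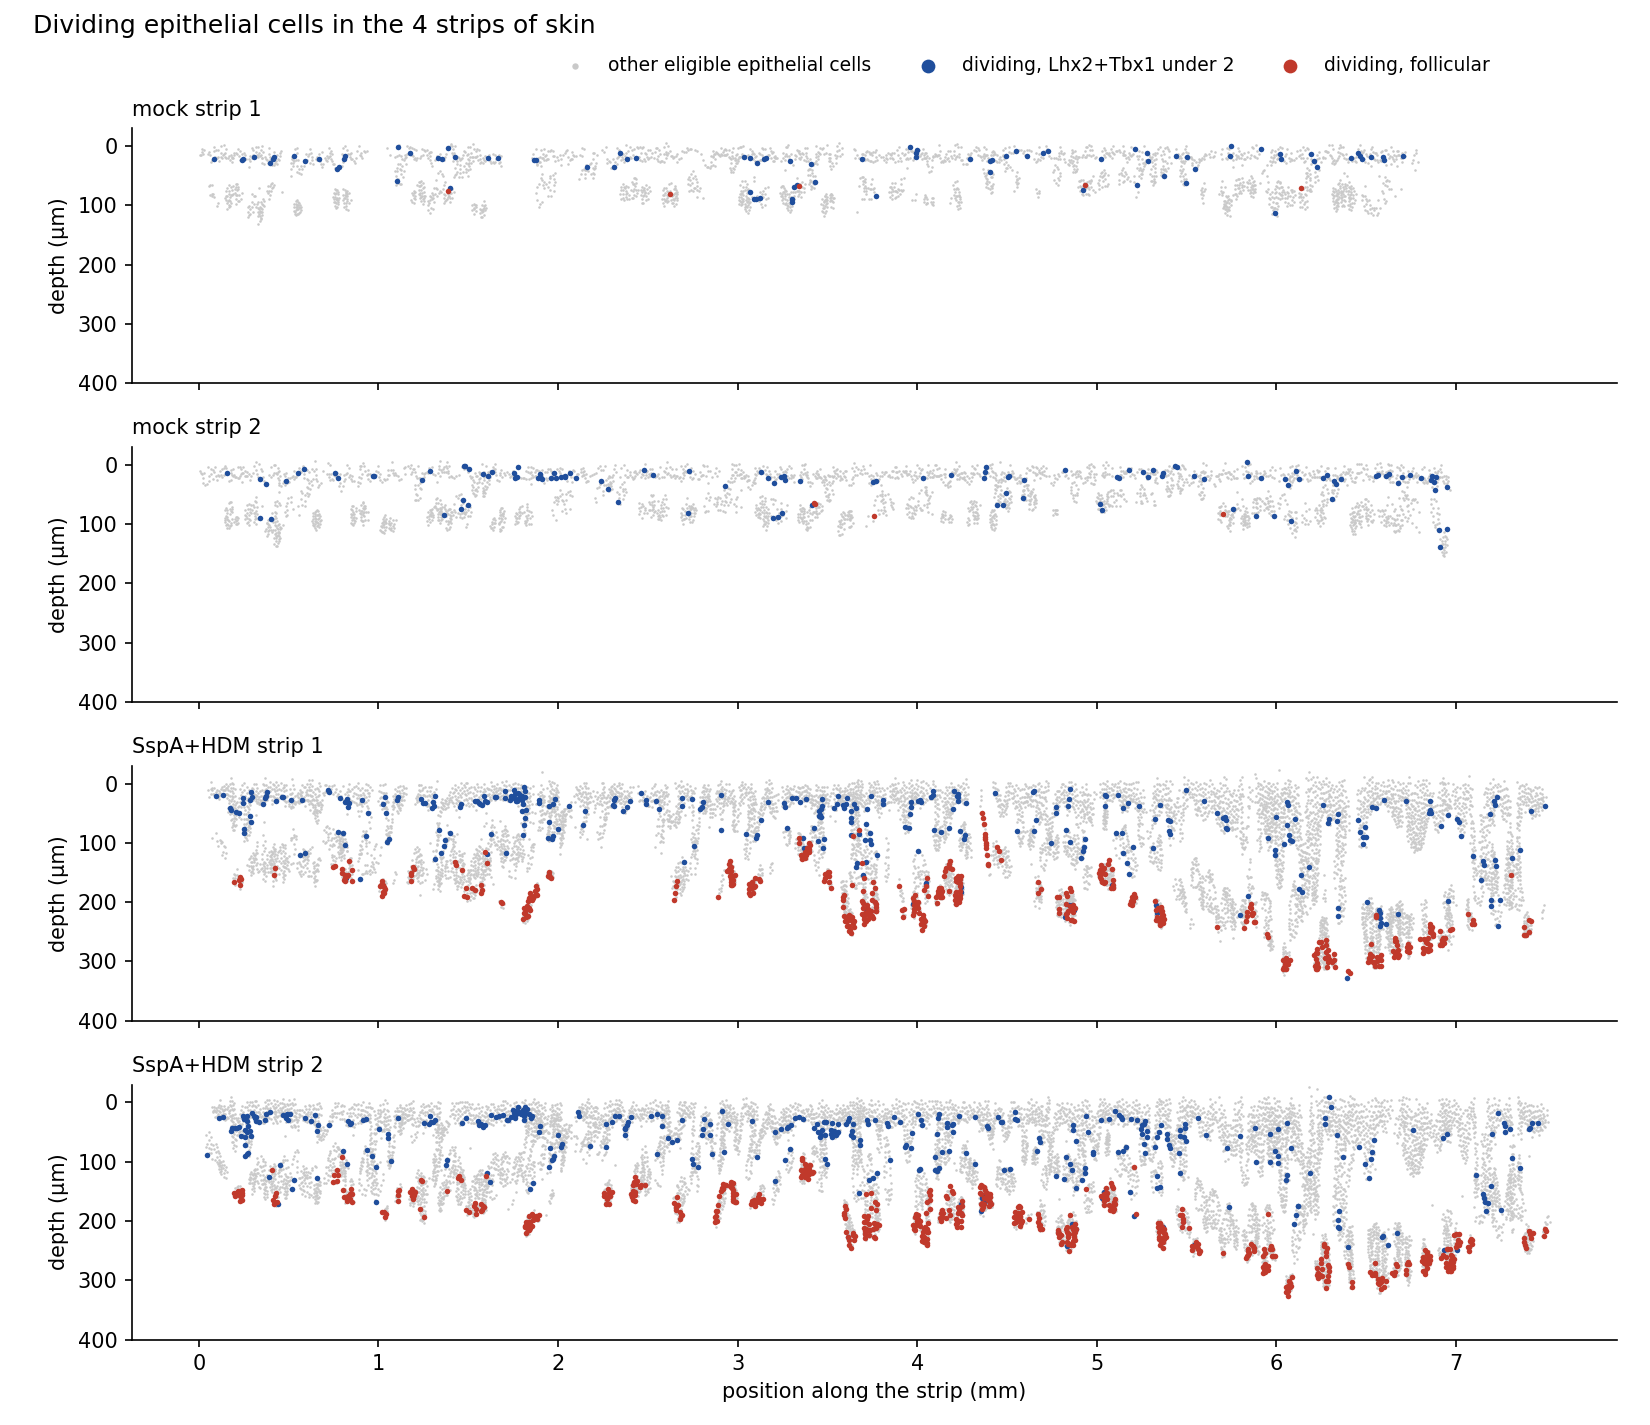
Position of eligible epithelial cells along each strip (x axis, mm) and in depth below the outer surface (y axis, µm, 0 at the top), with non-members in grey, dividing other cells in blue and dividing follicular cells in red, 1 panel per strip. In SspA+HDM the red points form compact groups at a median depth of 201 µm. Blue points there have a median depth of 49.8 µm, and 171 of 740 lie deeper than 100 µm. Mock has 9 red points, at a median depth of 70.8 µm. The course of the epithelium is alike in the 2 SspA+HDM strips.

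Dividing follicular cells lay in groups. Linked over gaps of at most 20 µm, 929 of the 1085 in SspA+HDM (85.6%) lay in 74 groups of at least 5 cells, 4.82 groups per mm. A group held a median of 11 cells (quartiles 7 and 17), at most 38, and spanned a median of 48.8 µm, and 37 cells were single. Of the 740 other cells in SspA+HDM 155 (20.9%) lay in 18 such groups, and 279 were single. In mock no group reached 5 cells in either class, and 127 of the 212 other cells were single. Dividing cells were 25.4% of eligible follicular and 4.90% of eligible other cells in SspA+HDM, and mock had 9 dividing follicular cells. Groups of all eligible or of non-dividing cells were not measured, so the part of density and of these shares in the grouping was not tested. Among the 10 nearest eligible cells, 40% were dividing around a dividing follicular cell of SspA+HDM and 12% around a non-dividing one. For other cells the same values were 13.6% and 4.05% in SspA+HDM and 7.88% and 3.77% in mock. Along the strips, in bins of 1 mm, the follicular share in SspA+HDM ran from 11.3 to 35.7% in one strip and from 14.9 to 36.9% in the other.

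The groups differed in signals for neighbouring cells. Stmn1 ran from 80645 to 215815 CPM over the 74 groups, and Epcam, an adhesion protein of epithelia, from 15228 to 100000 CPM. Bmp2, a ligand of the bone morphogenetic protein pathway, was at 0 in 16 groups and at 53050 CPM in the highest. Wnt3, a Wnt ligand, was at 0 in 24 groups and reached 16474 CPM. At a median of 11 cells a group holds few transcripts of Wnt3, and a 0 does not show that a gene was off. Bmp2, with a median of 10158 CPM over the 74 groups, was at 0 also in groups of 1498 and 1195 transcripts. What sets the groups without Bmp2 apart was not tested.

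Within the follicular class of SspA+HDM, dividing cells had more Wnt3, Bmp2, Stmn1 and Epcam and less of the genes Anxa8, Aqp3 and Sox9 than non-dividing cells. Of 115 genes with at least 100 transcripts on a side, 24 were higher by 2-fold or more (20.9%) and 28 lower (24.3%), around a median log2 ratio of 0.08. Each of these pointed the same way in both strips. Ratios between dividing and non-dividing cells are sizes within this section, with exact conditional intervals.

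Among ligands, Wnt3 was at 2373 and 1817 CPM in the dividing cells of the strips and at 407 and 298 CPM in the non-dividing cells, a ratio of 5.90 (4.44 to 7.93). Bmp2 was at 12032 and 9601 CPM against 2102 and 2163 CPM, a ratio of 5.02 (4.47 to 5.65). In both genes the dividing cells of either strip exceeded the non-dividing cells of both. Wnt3 was nonetheless seen in 12.9% and Bmp2 in 29.2% of the dividing cells, so most members had no transcript of either. Sfrp1, a secreted Wnt antagonist, was lower at a ratio of 0.43, while Wif1, another Wnt antagonist, was at 1.65.

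Cytoskeletal and matrix genes were also among the highest. Stmn1 was at 142585 and 146473 CPM against 39425 and 42044 CPM, a ratio of 3.55. Tubb3, a beta-tubulin, had a ratio of 3.03 and Tagln, an actin-binding protein, 2.78. Acan, the core protein of the proteoglycan aggrecan, was at 4.38 (3.21 to 6.05). Timp3, an inhibitor of metalloproteinases, was at 2.53 and the transcription factor Runx2 at 2.57. Epcam was at 51322 against 20433 CPM, a ratio of 2.51. Dbpht2, at 4.77, completes the 10 highest.

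The lowest were Serpinb11 (9.88-fold lower), 5330417C22Rik (7.41) and Cstdc4, a stefin-type protease inhibitor (6.94). Anxa8, an annexin, was at 8240 and 8906 CPM in dividing cells and at 52944 and 51198 CPM in non-dividing cells, 6.05-fold lower with no overlap of strips. Slc5a1, the sodium-glucose cotransporter, was 5.10-fold lower and Aqp3, a water and glycerol channel of basal keratinocytes, 4.56-fold lower. Aspn (3.73-fold), F3, tissue factor (3.69), and Them5 (3.34) were also among the lowest. Sox9, a transcription factor of the outer root sheath and follicle stem cells, was 2.60-fold lower, at 21152 against 54991 CPM. Col17a1, the collagen of hemidesmosomes, was 2.28-fold lower, and Krt13 3.11-fold lower.

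The contrast was smaller against cells close by. When each dividing cell was set against its 5 nearest non-dividing follicular cells, 4 of 159 measured genes were higher and 14 lower by that fold. Against all cells these were 24 and 28 of 115. More genes were measured although the nearest cells are among the same non-dividing cells. A non-dividing cell near several dividing cells was thus counted more than once, which helps a gene to reach the transcript limit. The counts of genes under these references are therefore not directly comparable. Against the nearest cells Bmp2 was at 2.66, Dbpht2 at 2.20 and Wnt3 at 2.18, with Lipg, a lipase, at 2.68. Stmn1 was at 1.77, Epcam at 1.73 and Timp3 at 1.40. Anxa8 was at 0.398 and Aqp3 at 0.467, nearer to 1 than against all cells, and Sox9 at 0.502 was no longer 2-fold lower. Of the genes 2-fold higher against all cells 3 were so here, and of those lower 10.

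In the other class of SspA+HDM, dividing cells had more Stmn1, Ptn and Col17a1 and less of the differentiation genes Ivl, Cnfn and Calm5. Of 198 genes 55 were higher by 2-fold or more (27.8%) and 27 lower (13.6%), and the median of all genes was itself 0.50 on the log2 scale. Ptn, the growth factor pleiotrophin, was at 7313 and 8102 CPM in the dividing cells of the strips and at 1478 and 1484 CPM in non-dividing cells, a ratio of 5.22 (4.85 to 5.61). Col17a1 was at 78484 and 83874 CPM against 27528 and 25519 CPM, a ratio of 3.07. In both genes the strips did not overlap. Stmn1 had a ratio of 5.64, Ackr3, a scavenger receptor for chemokines, 4.33, and Wnt3 and Bmp2 3.57 and 3.16. Complement C3 was at 3.71, the immunoproteasome subunit Psmb8 at 3.66, Gap43 at 3.01 and Tnfaip6, a hyaluronan-binding protein, at 2.95.

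Of the 5 spinous and granular genes measured outside the rule, 4 were at least 2-fold lower in these dividing cells, beside 13.6% of all 198 genes. The median log2 ratio of the 5 was −2.25. Ivl, involucrin of the cornified envelope, was at 1961 and 2203 CPM against 16608 and 16668 CPM, 7.97-fold lower. Cnfn, cornifelin, was 7.62-fold lower, Calm5, a calmodulin-like protein, 4.76-fold lower and Sbsn, suprabasin, 2.59-fold lower. Calm4 was 1.78-fold lower. In every one of these the dividing cells of both strips lay below the non-dividing ones. Transcripts were still found: Ivl was counted in 22.8% of dividing and 46.1% of non-dividing cells, and Sbsn in 89.5% and 91.6%. Cldn4, a claudin of tight junctions, was 8.19-fold lower, Dnase1l3 7.75-fold, Serpinb11 7.56-fold, Gm94 5.92-fold, Slc5a1 and the stefin Stfa2l1 4.57-fold each, and Ly6g6c 4.39-fold. Against the 5 nearest non-dividing cells 24 of 138 measured genes were higher and 21 lower. Ptn was then at 3.78, Stmn1 at 3.61, Col17a1 at 2.17, Ivl at 0.277 and Cldn4 at 0.225.

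Between the classes, 4 genes went opposite ways by at least 2-fold. Col17a1 was at 0.44 in follicular and 3.07 in other cells, Krt13 at 0.32 and 2.60, Sfrp1 at 0.43 and 2.17, and Vsnl1, a neuronal calcium sensor, at 0.38 and 2.86. With the 5 nearest cells as the reference Vsnl1 was at 1.02 in follicular cells and Col17a1 at 0.617, so neither was 2-fold lower there. Sfrp1 was at 0.564 in follicular and 1.65 in other cells, under 2-fold in both. Krt13, at 0.487 and 2.22, was opposite by 2-fold under that reference as well. Among 108 genes measured in both classes, 8 were higher in both, out of 21 higher in follicular and 30 in other cells. They were Ackr3, Bmp2, Pcolce2, Prx, Stmn1, Timp3, Tnfaip6 and Wnt3. Against the 5 nearest follicular cells Bmp2 and Wnt3 were still 2-fold higher, and in follicular cells Prx was at 1.97, Tnfaip6 at 1.87, Stmn1 at 1.77, Timp3 at 1.40, Pcolce2 at 1.16 and Ackr3 at 0.971. In both classes 11 were lower, out of 27 in follicular and 14 in other cells. The difference between the classes was not tested.

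**Figure D4:**
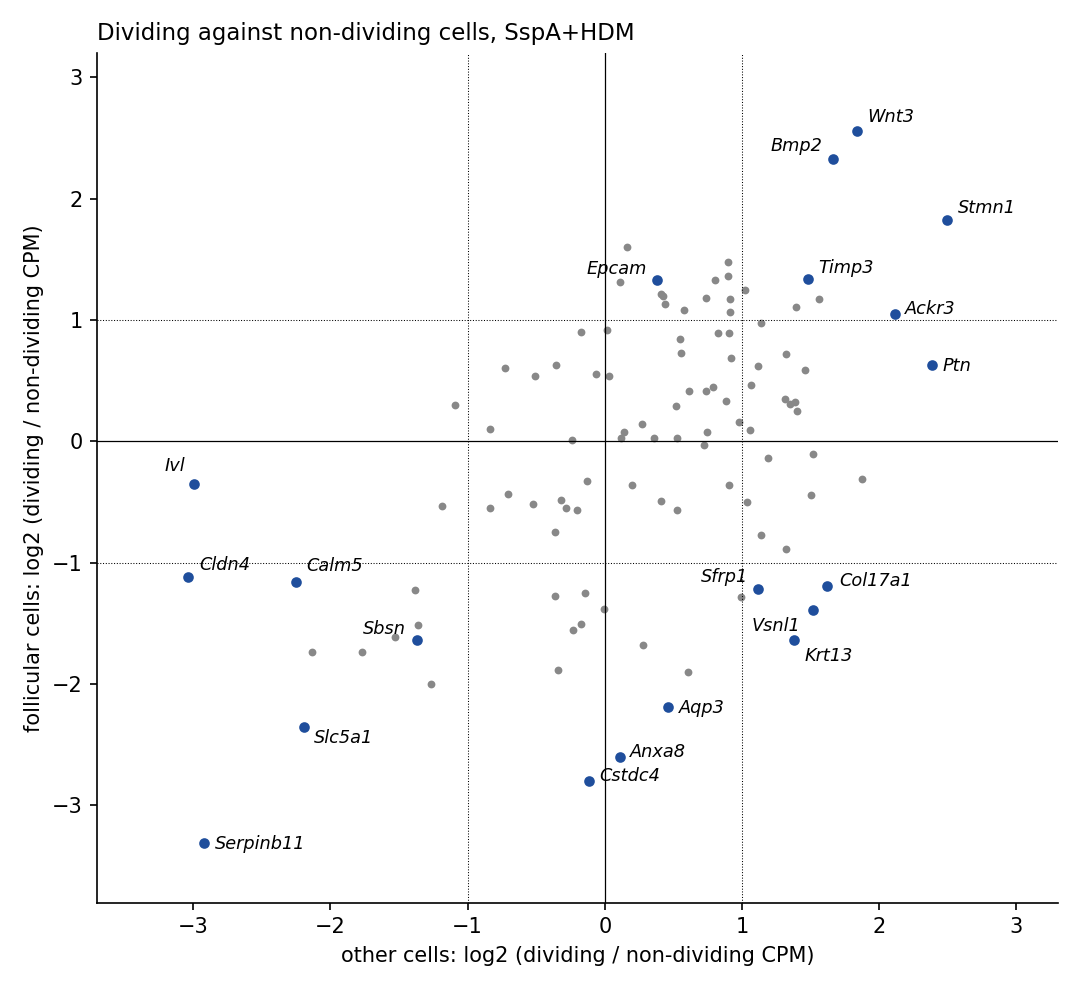
Log2 ratio of dividing over non-dividing CPM in other cells (x axis) and follicular cells (y axis) of SspA+HDM, 1 point per gene for the 108 genes measured in both, with dotted lines at 2-fold and the named genes in blue. Stmn1, Wnt3 and Bmp2 lie at the upper right, Serpinb11, Slc5a1 and Cldn4 at the lower left, and Col17a1, Krt13, Sfrp1 and Vsnl1 at the lower right.

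In the other class of mock, dividing cells had more Stmn1, Cstdc4 and Ptn and less Cldn4 than non-dividing cells. Of 147 genes 3 were higher by 2-fold or more (2.04%) and 19 lower (12.9%), with a median log2 ratio of −0.11. The 3 became 15 with non-dividing cells weighted to the same spread of transcripts per cell, where the number of genes measured is not given here. They became 6 against the 5 nearest cells (of 95 genes measured) or within 60 µm of the surface (of 120). The 19 became 7 against the 5 nearest cells and 29 where a count of 5 was asked. The 3 were Stmn1 at 5.92 (5.58 to 6.27), Cstdc4 at 3.92 (2.77 to 5.45) and Ptn at 2.95 (2.65 to 3.28). Ptn was at 12579 and 12044 CPM in the strips against 3921 and 4380.3 CPM. Cstdc4 was at 645 and 1915 CPM against 264 and 423 CPM, and the dividing cells of one strip were far above those of the other. Ackr3 was at 1.88, Psmb8 at 1.87, Col17a1 at 1.5, Wnt3 at 1.21 and Bmp2 at 1.02.

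Of 6 spinous and granular genes, 1 was at least 2-fold lower in mock dividing cells, Cnfn at 2.24-fold, beside 12.9% of all 147 genes. Ivl was at 0.77, Calm5 at 0.87, Sbsn at 0.73, Calm4 at 0.94 and Lce1m, of the late cornified envelope, at 1.12. Cldn4 was 2.86-fold lower, Fmo5 3.02-fold and Hsd3b4, a steroid dehydrogenase, 3.18-fold. The lowest ratios rest on few transcripts. Retnla and Wif1 had 1 transcript each in the 212 cells, with ratios of 0.094 (0.0024 to 0.53) and 0.12 (0.0031 to 0.70). Rac2 and Ccl9 had 3 each. Ptn and Stmn1 were the genes higher by 2-fold in both sections, out of 3 in mock and 40 in SspA+HDM among 140 measured in both.

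Between treatments, dividing other cells were compared as 740 cells of SspA+HDM against 212 of mock. They had more Krt16, stefins and Aqp3 and less Ivl, Sbsn and Calm5 in SspA+HDM, while Stmn1 had a ratio of 1.02. Of 88 genes 22 were higher by 2-fold or more (25%) and 13 lower (14.8%), around a median log2 ratio of 0.23. In non-dividing other cells 25 of 205 were higher (12.2%) and 67 lower (32.7%), around −0.50. The 9 follicular mock cells held 1285 transcripts and were not compared by gene.

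Genes of activated keratinocytes led the higher side. Krt16, a keratin of activated epidermis, was at 48949 and 44721 CPM in the SspA+HDM strips and at 3354 and 8013 CPM in mock, a ratio of 7.83 (6.82 to 9.02). In non-dividing cells the ratio was 14.3. Cstdc4 was at 32062 and 31549 CPM against 645 and 1915 CPM, 23.4-fold higher in dividing and 99.3-fold higher in non-dividing cells. Stfa2l1, another stefin, was at 37.3 (12.7 to 181, from 3 mock transcripts) and 232. Of the 6 activated keratinocyte genes 5 were higher by 2-fold in dividing cells, beside 25% of all 88 genes. Il1r2, the interleukin-1 decoy receptor, was at 0.64. The 5 included Cxcr2, which is also on the granulocyte list. In non-dividing cells 5 were higher, beside 12.2% of all 205 genes, and Il1r2 was at 0.31.

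Other high genes were 2610528A11Rik, which encodes a ligand of the receptor GPR15 (78.1, 26.6 to 379, from 3 mock transcripts), and Rac2, a GTPase of blood cells (19.5, 6.57 to 95.2, also from 3). Uox, urate oxidase, had 154 transcripts in SspA+HDM and 0 in mock and was at least 14.3-fold higher, with mock set to 3 transcripts over the group. Rbp2, a retinol-binding protein, was at 9.86 and Slc5a1 at 6.6. Vsnl1 was at 5.31 in dividing and 1.31 in non-dividing cells. Aqp3 was at 56478 and 49790.3 CPM against 12256 and 14464 CPM, a ratio of 3.92 with no overlap of strips, and 4.94 in non-dividing cells. Sostdc1, a secreted antagonist of BMP and Wnt signals, was at 4.66 in dividing and 1.42 in non-dividing cells. Within 60 µm of the surface Sostdc1 was at 1.58 and Vsnl1 at 9.65.

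The lower side held differentiation genes. Of 5 spinous and granular genes 4 were at least 2-fold lower in the dividing cells of SspA+HDM, beside 14.8% of all 88 genes. Their median log2 ratio was −1.54. In non-dividing cells, where Cnfn was also measured, 1 of 6 was lower and 1 higher, and the median was 0.23. Of all 205 genes there, 32.7% were lower and 12.2% higher. Ivl was at 1961 and 2203 CPM in the SspA+HDM strips and at 10515 and 11893 CPM in mock, 5.41-fold lower, and in non-dividing cells the ratio was 1.13. Calm5 was at 3873 and 3561 CPM against 10773 and 10785 CPM, 2.91-fold lower, and 1.42 in non-dividing cells. Sbsn was 2.13-fold lower, and 0.89 in non-dividing cells. In these genes the strips of the sections did not overlap among dividing cells. Whether the ratios differ between dividing and non-dividing cells was not tested, since each section is 1 sample.

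Lce1m was 88.1-fold lower (8 transcripts against 197) and 138-fold lower in non-dividing cells. Gm94 was 14-fold lower, Crct1 3.89-fold, Cyp4b1, a cytochrome P450, 3.29-fold, and the chromatin organiser Satb1 2.94-fold. Ly6g6c was 2.88-fold lower, Krt13 2.52-fold and the protease Prss23 2.47-fold, against ratios of 0.82 for Ly6g6c and 0.16 for Krt13 in non-dividing cells. Stmn1 was at 47769 and 48945 CPM in the SspA+HDM strips and at 45994 and 48581 CPM in mock, a ratio of 1.02 (0.966 to 1.08), and the strips overlapped. Col17a1 was likewise at 1.06 in dividing cells and at 0.52 in non-dividing cells. Wnt3 was at 0.76 and 0.26, and Bmp2 at 1.18 and 0.38.

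**Figure D5:**
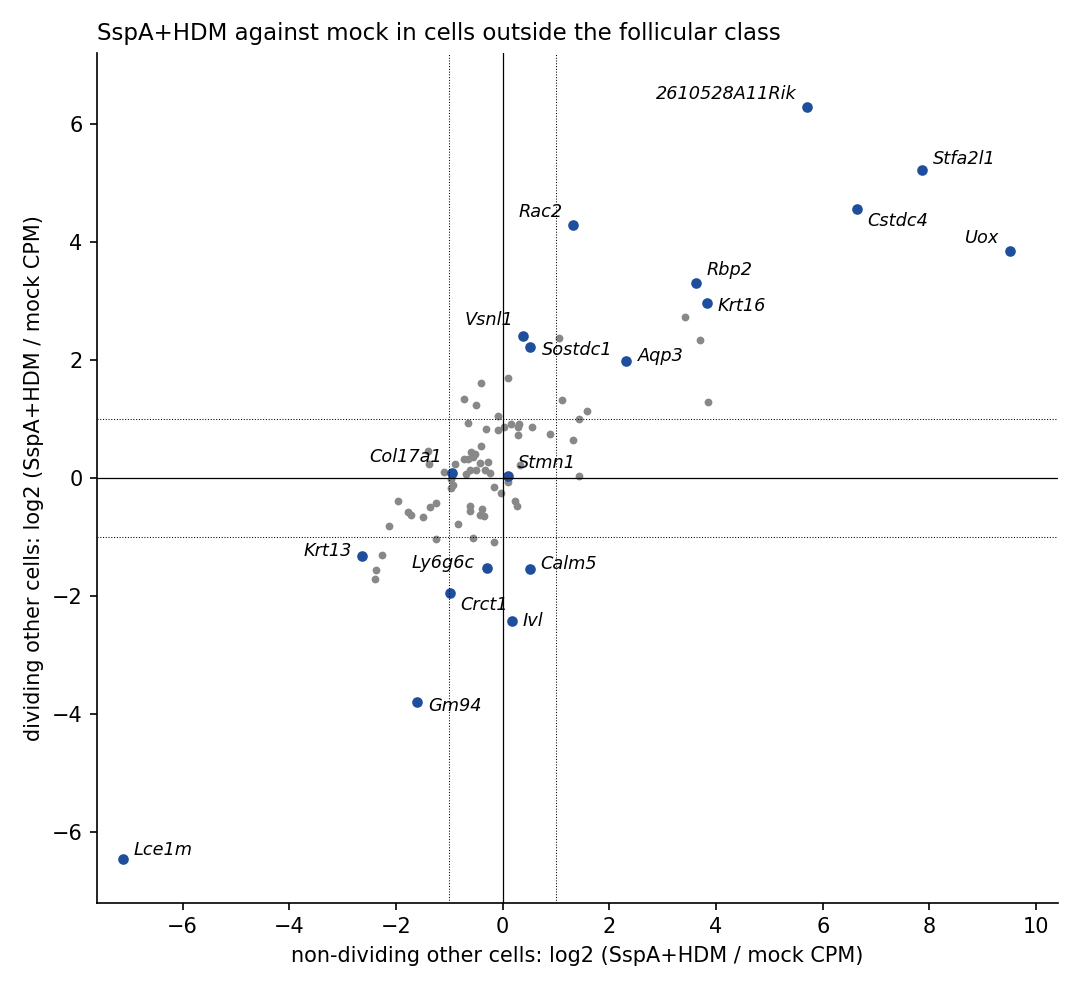
Log2 ratio of SspA+HDM over mock CPM in non-dividing (x axis) and dividing (y axis) cells of the other class, 1 point per gene for the 88 genes measured in both, with dotted lines at 2-fold and the named genes in blue. The stefins, 2610528A11Rik and Krt16 lie high in both; Ivl and Calm5 lie below the lower dotted line in dividing cells alone, and the dividing value of Uox is a lower bound.

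The dividing cells of the classes were also set against each other within SspA+HDM. Stmn1 was 2.99-fold higher in follicular cells and Epcam 3.24-fold. Of 114 genes 45 were at least 2-fold higher in follicular cells (39.5%) and 39 lower (34.2%). In non-dividing cells 86 of 202 were higher (42.6%) and 44 lower (21.8%), so the classes also differed away from division. Highest were Hsd11b2, which inactivates glucocorticoids (67.1, and 80.2 in non-dividing cells), Atp6v1b1, a proton pump subunit (65.1 and 65.8), Acan (58.7, from 3 transcripts in other cells) and Wif1 (44.6 and 67.7). Also among the 10 highest were Hp, haptoglobin, at 18.1, and the adipocyte list genes Retn, resistin, at 15.8 and Car3, a carbonic anhydrase, at 13.3. Summed over their lists, adipocyte genes gave 9328 CPM in dividing follicular and 3092 CPM in dividing other cells, and fibroblast genes 53006 and 11689 CPM. Their part in this contrast was not tested. Ptn was at 71197 and 71963 CPM in follicular strips and at 7313 and 8102 CPM in other strips, a ratio of 9.27, against 31.2 in non-dividing cells. Cstdc4 was 156-fold lower in dividing follicular cells and 24.4-fold lower in non-dividing ones, and 2610528A11Rik 137-fold and 12.8-fold lower. Aqp3 was 27.2-fold lower, against 4.33-fold in non-dividing cells.

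An outline in a tissue section can hold transcripts of neighbouring cells, and markers of other cell types moved both ways with division in the other class of SspA+HDM. There the 5 macrophage genes summed to 1344 CPM in dividing and 649 CPM in non-dividing cells (strips 1629 and 1086 against 641 and 655). The 4 T cell genes gave 2950 against 1549 CPM, the 5 fibroblast genes 11689 against 6276 CPM, and the 4 endothelial genes 783 against 388 CPM. Lower in dividing cells were the 4 granulocyte genes (1250 against 2306 CPM), the 4 adipocyte genes (3092 against 5911 CPM) and the 4 skeletal muscle genes (925 against 1234 CPM, with non-dividing strips at 2049 and 531). No marker of these lists was at 0 in these cells. In mock the same sums were 934 against 964, 566 against 856, 11260 against 10234 and 594 against 480 CPM, with 1 macrophage gene, Ms4a7, at 0 in the dividing cells. In follicular cells of SspA+HDM the fibroblast genes gave 53006 against 42177 CPM and the macrophage genes 735 against 554 CPM. The adipocyte genes gave 9328 against 5420 CPM there, skeletal muscle 2506 against 1657 CPM, and the 1 Schwann cell gene 910 against 472 CPM. Cells that hold any macrophage or T cell marker were also left out. Then 57 genes were 2-fold higher and 26 lower in dividing other cells of SspA+HDM, beside 55 and 27 of 198 genes with all cells. The number of genes measured without those cells is not given here. Of the 20 named genes of that comparison, 15 moved by less than their interval and 5 by more, which were Stmn1, Ptn, Col17a1, Psmb8 and Stfa2l1. The part of the other lists was not tested. At least 1 T cell transcript was found in 18.5% of dividing and 11.4% of non-dividing other cells of SspA+HDM. Dividing other cells also held more transcripts, with medians of 201 against 176 in SspA+HDM and 194.5 against 123 in mock. Their outlines were larger, at 83.7 against 66.7 µm2 and 118 against 76.4 µm2. Dividing follicular cells of SspA+HDM had 130 transcripts and 54.0 µm2, against 103 and 44.6 µm2.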

How the data were processed

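Each sample is a section of back skin measured with Xenium In Situ, and day and section thickness are as the labels give them. The authors deposited 1 row per decoded transcript, with gene, cell, position, overlap with a nucleus and a quality score (per the file headers), and the corners of cell outlines. The deposited score was not filtered, so transcripts with a score of at least 20 were counted here and control features left out. Positions were taken as µm. The sources used here name no software for decoding or segmentation. Cell assignments were used as deposited and no doublet caller was run.

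The members, gene lists and thresholds were chosen with earlier results of these data known. Counts were summed per gene over cells of a class and divided by the sum over the 369 genes outside the rule (CPM). Ratios have exact conditional binomial intervals, shares exact Clopper-Pearson intervals, and the ratio of 2 shares a log-normal interval. A count of 0 was set to 3 transcripts over the group, which makes the fold a bound. A gene was used with at least 100 transcripts on 1 side, and a fold of 2 was the size counted as a difference. In the reference of the 5 nearest cells a non-dividing cell could be counted more than once, and its transcripts with it. With 1 sample per group, no test was made. Named genes are the 10 highest and 10 lowest ratios of each comparison that point the same way in both strips, and the measured members of the lists that are counted. Some genes that the rule names are not reported here. Sox9, Sfrp1, Sostdc1, Lipg, Prx and repeats of a named gene in another comparison were added after their values were seen. Strips are pieces of cells linked within 100 µm. The outer surface is the 2nd percentile of epithelial cells in 50-µm bins. The ratio and thinning steps were tested on simulated data. Of 379 gene names 378 matched a RefSeq symbol. Promoters came from RefSeq and there was no entry for Stmn1. Alternatives changed the quality limit, the limits of the rule, the reference cells, the depth, the scaling, the surface and the strips used. Python 3.11.15, numpy 2.4.6, pandas 2.3.3 and scipy 1.17.1 were used.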

Additional observations from a re-analysis of the deposited data

Results flagged for a closer look

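In the SspA+HDM section, 1.764% of cells outside the epithelial limit (425 of 24087, exact interval 1.60 to 1.94%) had at least 3 transcripts of Cenpf and Ube2c, against 0.160% in mock (14 of 8740). No comparison of the report uses these cells. Of those with at least 2 transcripts of Lhx2 and Tbx1 the share was 14.8% (92 of 621), and of the rest 1.42% (333 of 23466).

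Ccl9, a chemokine, and Wif1 went opposite ways in the sections among other cells. In SspA+HDM the ratio of dividing over non-dividing cells was 2.452 for Ccl9 and 2.503 for Wif1, and in mock 0.25 and 0.12. The mock values rest on 3 and 1 transcripts in dividing cells, and the difference was not tested. The mock ratio of Wif1 turned above 1 without mock strip 2 and within 60 µm of the surface.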

How the results depend on the processing

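The dividing share of follicular cells was higher in SspA+HDM than in mock under every alternative run for it. Its ratio of 27.9 became 62.2 with an epithelial limit of 12%, 82.5 with cells thinned, 107 over the nucleus, 13.6 and 79.3 with follicular limits of 1 and 4, and 64.4 with the pair at 2% of transcripts or more (this, the limit to 60 µm and the leaving out of immune markers were chosen after seeing the data). Without 1 strip it ran from 23.7 to 33.1. The mock side of these ratios is small: 9 dividing cells in the main setting, 1 of 613 when thinned and 2 of 562 at a follicular limit of 4. Their sizes are therefore loose, and a larger ratio is not read as a larger difference. The ratio of other shares, 1.09, became 0.739 at a count of 5, 0.841 thinned and 0.937 over the nucleus, and ran from 1.02 to 1.18 without 1 strip. The follicular percent of dividing SspA+HDM cells, 59.5, became 56.7 with no quality limit, 53.7 and 66.1 at counts of 2 and 5, 70.6 thinned, and 63.8 and 53.4 at follicular limits of 1 and 4, and 58.5 to 60.2 without 1 strip. The reference of the 5 nearest cells could count a non-dividing cell more than once, so its counts of genes are not directly comparable with the main ones. It measured 159 genes in follicular, 138 in other SspA+HDM and 95 in other mock cells, beside 115, 198 and 147. Of these, genes higher in dividing cells numbered 4 in follicular (24), 24 in other SspA+HDM (55) and 6 in other mock cells (3), and genes lower 14 (28) and 7 in mock (19). With at least 30 transcripts they numbered 37, 90 and 9 higher and 34 lower in mock, as more genes enter. The 3 in mock became 15 weighted by depth, 6 within 60 µm and 6 without cells holding immune markers, and the 19 became 29 at a count of 5. Genes lower in SspA+HDM dividing cells than mock, 13, became 30 at 30 transcripts and 5 over the nucleus. Without 1 strip these counts ran from 16 to 18 and 20 to 22 (follicular), 41 to 53 and 23 to 28 (other SspA+HDM), 2 to 3 and 12 to 15 (mock), and 15 to 28 and 11 to 12 (SspA+HDM over mock). The number of genes measured can change with each of these settings and is not given beside every count. A changed count can thus reflect a changed set of genes. The mock depth of 21.7 µm became 20.2 µm with another surface. Wif1 in mock, −3.03 on the log2 scale from 1 transcript, was at −2.42 without mock strip 1, and turned to 0.026 without mock strip 2 and to 1.33 within 60 µm. The cause of these shifts was not tested. Of the values of single genes, 635 moved by less than their interval, 152 by more, and 2 reversed. With the 5 nearest cells, all 20 named follicular genes moved by more, as did 19 of 20 in other SspA+HDM cells and 6 of 20 in mock. Over the nucleus 12 of 21 genes of the comparison between treatments moved by more. No paired analysis was possible because each treatment is 1 sample with no replicate number. With 9 dividing follicular mock cells, depth allows no comparison by gene.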
